A study of Mus musculus with 20 samples.

Results

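Glycolytic enzymes and lactate dehydrogenases were followed in fetal mouse hearts across 3 doses of TCDD (2,3,7,8-tetrachlorodibenzo-p-dioxin). The set was defined by gene symbol: Aldoa, Pgk1, Pgam1, Tpi1, Eno1, Eno3, Ldha, Ldhb, Hk1 and Hk2, with every probe set that the platform annotation gives to those symbols. That rule found 12 of the 12488 probe sets, for 9 of the 10 genes; Eno1 has no probe set under its symbol in that annotation and is not analysed here. Of the 12, 10 probe sets for 9 genes passed the low-signal filter, among 8097 that passed overall. At these doses no probe set of the 9 genes passed the test. The largest difference was that of hexokinase 1 at 6 µg/kg, with a mean signal of 6451 ± 1225 (SD, n = 4) against 8886 ± 1102 (SD, n = 8) in controls.

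RNA came from whole hearts collected on gestation day 17.5 and was hybridised to 20 Affymetrix MG-U74Av2 arrays. The 8 control arrays were of fetuses exposed to the corn oil vehicle by oral gavage on gestation day 14.5. The other groups received TCDD at 1.5, 3 or 6 µg/kg, with 4 arrays each. The study's design text gives 4 replicates of every dose, whereas 8 arrays are labelled as controls, and all 8 were used. The labels give the same gestation days for all groups, except that 1 array at 1.5 µg/kg gives its treatment day in a form not used here. They give no strain. Nor do they say whether each array holds 1 heart or several, or which fetuses share a dam, and p-values therefore measure only the spread between these arrays, which may be technical.

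Glycolysis splits glucose into pyruvate in the cytosol, and lactate dehydrogenase converts pyruvate and lactate into each other. The fetal heart, which lives at low oxygen, relies on glucose and lactate more than the adult heart, which burns mainly fatty acids. TCDD activates the aryl hydrocarbon receptor, which binds DNA with the partner protein ARNT. The hypoxia-inducible factors use the same partner, and several glycolytic genes, Ldha and Pgk1 among them, are textbook targets of the hypoxia response.

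Promoter sequence is shown for genes of the isoform pairs and for Pgk1, since the receptor complex and the hypoxia factors recognise closely related cores. Each run is the 250 bases before an annotated start site, 5′ to 3′ on the gene's own strand, from RefSeq on build GRCm38.p6. Capitals mark every match, on either strand, to GCGTG (the core bound by the receptor with ARNT) or ACGTG (a core bound by hypoxia factors). The cores share the letters CGTG, and naming a factor for a core does not mean that the other factor cannot bind it. A CACGTG holds ACGTG on both strands and counts as 2 matches.
Hk1, chr10:62340422-62340671, minus strand: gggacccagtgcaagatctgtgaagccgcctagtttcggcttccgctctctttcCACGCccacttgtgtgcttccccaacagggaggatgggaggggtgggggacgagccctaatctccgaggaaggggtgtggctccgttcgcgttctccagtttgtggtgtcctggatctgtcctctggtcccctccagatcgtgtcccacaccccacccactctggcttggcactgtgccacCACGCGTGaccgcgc
Hk2, chr6:82774455-82774704, minus strand: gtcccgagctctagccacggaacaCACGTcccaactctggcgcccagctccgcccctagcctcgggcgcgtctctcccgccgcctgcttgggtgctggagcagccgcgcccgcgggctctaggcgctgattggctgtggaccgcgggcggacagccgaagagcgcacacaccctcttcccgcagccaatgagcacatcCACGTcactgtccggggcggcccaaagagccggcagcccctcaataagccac
Ldha, chr7:46845554-46845803, plus strand: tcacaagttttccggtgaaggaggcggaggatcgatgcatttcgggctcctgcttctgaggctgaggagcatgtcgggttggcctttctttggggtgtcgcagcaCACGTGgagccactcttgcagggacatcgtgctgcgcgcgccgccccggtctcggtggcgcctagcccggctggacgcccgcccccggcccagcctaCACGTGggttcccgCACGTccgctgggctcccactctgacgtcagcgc
Ldhb, chr6:142507958-142508207, minus strand: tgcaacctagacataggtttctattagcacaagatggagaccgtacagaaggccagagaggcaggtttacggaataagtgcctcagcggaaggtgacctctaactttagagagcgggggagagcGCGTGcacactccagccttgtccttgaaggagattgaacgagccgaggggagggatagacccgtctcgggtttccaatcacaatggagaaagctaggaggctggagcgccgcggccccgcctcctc
Pgk1, chrX:106186850-106187099, plus strand: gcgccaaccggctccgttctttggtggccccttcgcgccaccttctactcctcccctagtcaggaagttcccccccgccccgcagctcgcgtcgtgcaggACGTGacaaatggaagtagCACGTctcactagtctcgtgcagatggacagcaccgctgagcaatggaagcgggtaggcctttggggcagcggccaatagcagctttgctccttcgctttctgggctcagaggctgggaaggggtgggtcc
The Hk1 run holds 3 matches to GCGTG, of which a pair overlaps on opposite strands near the start site. The Ldha run holds 5 matches to ACGTG at 3 places, and the Ldhb run holds none of them and 1 GCGTG. The printed runs stop at the start site, and the longer windows described below reach past it. There Hk1 also holds 2 ACGTG, at 7 and 16 bases after the site, and Ldha 2 GCGTG, at 25 and 37 bases. Both genes thus hold both cores, while the windows of Hk2, Ldhb and Pgk1 add no match. Ldha has another annotated start site, not printed, whose 250 bases (chr7:46846832-46847081) hold 1 GCGTG and no ACGTG, as in Ldhb. The Hk1 and Ldha start sites used here lie inside the annotated gene spans, and the others at the gene's edge. Hk2 and Pgk1 hold 2 matches to ACGTG each and none to GCGTG.

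All 10 genes have a promoter entry in the RefSeq table, with 16 windows of 300 bases in all, from 250 bases before to 50 after a start site. GCGTG occurred in 9 of the 16 windows (6 of 10 genes) and in 32.4% of all 32851 windows of that length in the table. ACGTG occurred in 7 of the 16 windows (6 of 10 genes) and in 19.6% of all windows. The longer dioxin-response motif TNGCGTG, which contains GCGTG, occurred in 1 member window, of Eno1, and in 5.07% of all windows. Tpi1, another Hk1 start site and 1 of 3 Aldoa start sites had no match in their windows. Some windows of a gene overlap, so the same site can count more than once, as in a pair of Eno1 windows and a pair of Aldoa windows. The share over all windows was not matched for base composition. A match is a description of the letters only; binding was not measured in these samples.

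**Figure D1:**
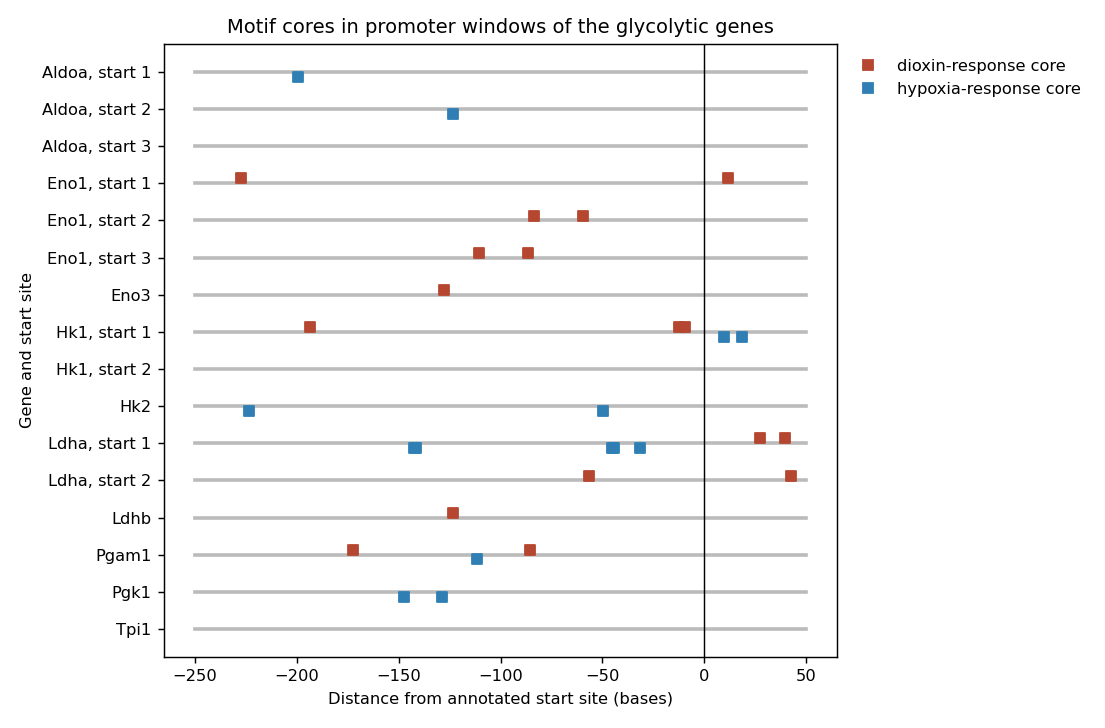
Positions of motif cores in the 16 promoter windows of the 10 genes, as distance in bases from the annotated start site (vertical line). Red squares mark the dioxin-response core and blue squares the hypoxia-response core, each on either strand; grey lines are the windows, and 9 and 7 of them carry the respective core.

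Signals are MAS5 values, a linear intensity per probe set, scaled alike on all arrays; a log2 change is a difference of group means of log2(signal + 32), with its standard error (SE). The median signal of an array ranged from 171 to 210.4, and array pairs correlated at 0.957 to 0.986. Differences were tested with limma over all 8097 probe sets, with p adjusted by Benjamini-Hochberg and a threshold of 0.05. In simulated data with the spread of these arrays, 200 of 8097 probe sets were changed at 6 µg/kg, with independent errors. Against controls, limma recovered 11% of 1.25-fold, 65.5% of 1.5-fold and 88% of 2-fold changes. It also called 0, 11 and 8 unchanged probe sets. Recovery depends on how many probe sets change, and far fewer than 200 were called at each dose here, so these shares may not hold for these data. Controls 1, 2 and 6 and replicate 4 at 6 µg/kg stood apart in the β-actin 3′ to middle log2 ratio, a sign of RNA or labelling quality, at 0.893 or more against 0.608 or less elsewhere. The 3 dose comparisons share the same 8 controls, so their values are given side by side and are not independent.

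The first question was whether any dose altered the pathway's transcripts. At 1.5 µg/kg, 0 of the 10 probe sets were called, against 0.21% of all probe sets tested (17 of 8097). At 3 µg/kg, 0 of 10 were called, against 0.0247% overall. At 6 µg/kg, 0 of 10 were called, against 0.0741% overall. Against so low a background, a count of 0 in 10 says little about these genes in particular. At an unadjusted p under 0.05, 2, 1 and 1 of the 10 probe sets passed at 1.5, 3 and 6 µg/kg, against 12.6%, 5.72% and 9.15% of all probe sets.

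Taking the brightest probe set of each gene, the mean was below controls for 8 of 9 genes at 1.5 µg/kg and 9 of 9 at 3 µg/kg, but for 5 of 9 at 6 µg/kg. The median log2 change of the 9 genes was -0.14, -0.11 and -0.0035 at these doses; leaving out single arrays moved the last between -0.045 and 0.036. Over all probe sets, 48.1%, 48.8% and 50.3% were below controls and the median changes were 0.0088, 0.0047 and -0.0013. These counts describe the set and are not a test, since the genes share arrays and controls. With quantile normalisation 8, 7 and 5 of the 9 genes were below controls, with medians of -0.08, -0.06 and -0.06.

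**Figure D2:**
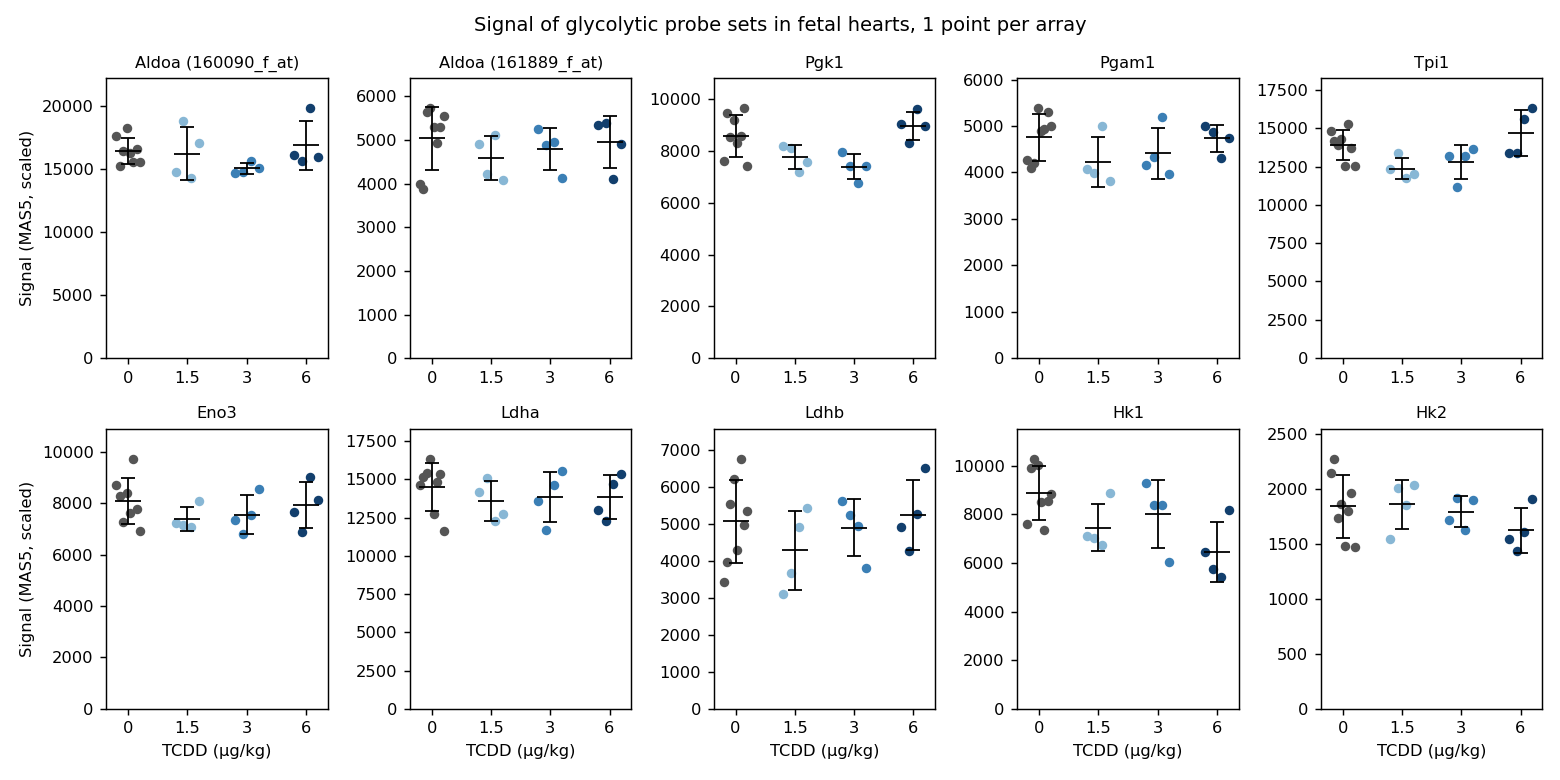
Signal of the 10 probe sets by TCDD dose, with 1 point per array (8 controls at 0, 4 arrays per dose) and the group mean with SD in black; axes start at 0. Treated points overlap the control points in every panel, and the 6 µg/kg Hk1 group, with 3 of 4 arrays below all controls, sits furthest from them.

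Hexokinases phosphorylate glucose at its entry into the cell's metabolism. Hk1, the isoform that dominates in the fetal heart and lies on chromosome 10 at 62268855 to 62379920, had control signals with a lowest, median and highest value of 7355, 8688 and 10276. The arrays at 1.5 µg/kg read 7101, 7042, 6755 and 8888, and those at 3 µg/kg 9308, 8396, 8369 and 6028. At 6 µg/kg they read 6447, 5747, 5434 and 8175. Of the 4 arrays in each treated group, 3, 1 and 3 lay below every control at 1.5, 3 and 6 µg/kg, and the others lay inside the control range.

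The log2 changes of Hk1 were -0.25 ± 0.12, -0.15 ± 0.12 and -0.47 ± 0.12 (SE). The 3 µg/kg value was -0.024 without replicate 4 of that group. At 6 µg/kg the change is a percent change of -27.7, with a 95% interval of -0.72 to -0.22 on the log2 scale and an unadjusted limma p of 0.000858, rank 34 of 8097. The limma adjusted p was 0.204 at that dose, 0.395 at 1.5 µg/kg and 0.939 at 3 µg/kg, so no dose passed. Over 34 alternative settings the adjusted p at 6 µg/kg ranged from 0.0469 to 0.922, the highest with controls 5 to 8 alone (log2 change -0.38), and the sign of the change was negative in all 34. The control mean was 9461 ± 1235 in controls 1 to 4 and 8310.2 ± 652 in controls 5 to 8 (SD, n = 4 each). The Hk1 change at 6 µg/kg passed with array quality weights (log2 change -0.51, adjusted p = 0.0469) and with controls 1 to 4 alone (log2 change -0.56, adjusted p = 0.0497). In those fits 10 of 8097 and 187 of 8001 probe sets were called at that dose, against 6 of 8097 in the main fit.

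Hk2, the insulin-responsive hexokinase of muscle and adult heart, lies on chromosome 6 at 82725025 to 82774454. Its control signals had a lowest, median and highest value of 1469.9, 1832 and 2272. The treated arrays read 1549, 2011, 1852 and 2032 in the 1.5 µg/kg group, 1716, 1919, 1629.7 and 1903 in the 3 µg/kg group and 1547, 1432, 1608 and 1912 in the 6 µg/kg group. A single treated array, replicate 2 at 6 µg/kg, lay below the controls and none lay above. The log2 changes were 0.02 ± 0.11, -0.03 ± 0.11 and -0.17 ± 0.11 (SE), with limma adjusted p-values of 0.953, 0.994 and 0.644.

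Aldolase A, encoded by Aldoa (chromosome 7, 126795234 to 126800994), cleaves fructose bisphosphate into the pair of triose phosphates, and triose phosphate isomerase, encoded by Tpi1 (chromosome 6, 124810586 to 124814158), interconverts them. Both Aldoa probe sets carry the suffix that Affymetrix gives to probes shared by a sequence family, so their signal may include related transcripts. The brighter, 160090_f_at, read 15234, 16354 and 18290.4 as the lowest, median and highest control. The treated arrays read 14728, 18835, 14289 and 17069 in the 1.5 µg/kg group, 14684, 14750.5, 15671 and 15079 in the 3 µg/kg group and 16149.7, 15661, 19812 and 15935 in the 6 µg/kg group. At 1.5 µg/kg 2 arrays lay below and 1 above all controls, 3 lay below at 3 µg/kg, and 1 lay above at 6 µg/kg. Its log2 changes were -0.03 ± 0.08, -0.13 ± 0.08 and 0.03 ± 0.08 (SE).

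The second Aldoa probe set, 161889_f_at, gave log2 changes of -0.13 ± 0.11, -0.06 ± 0.11 and -0.02 ± 0.11 (SE), and all its treated arrays lay within the control range. The Aldoa probe sets differed in sign at 6 µg/kg, where both 95% intervals included 0. The lowest limma adjusted p of either was 0.667, that of 161889_f_at at 1.5 µg/kg.

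Tpi1 had control signals of 12511, 14022 and 15266 as the lowest, median and highest. The 1.5 µg/kg arrays read 12324, 13377, 11735 and 12034, those at 3 µg/kg 13181, 11132, 13214 and 13623, and those at 6 µg/kg 13368, 13399.7, 15627 and 16290.2. Treated arrays thus lay on both sides of the control range: 3 of 4 were below it at 1.5 µg/kg, 1 of 4 at 3 µg/kg, and 2 of 4 were above it at 6 µg/kg. Tpi1 had log2 changes of -0.17 ± 0.08, -0.12 ± 0.08 and 0.07 ± 0.08 (SE). The 1.5 µg/kg change had an unadjusted p of 0.0377 and a limma adjusted p of 0.364, the lowest of the 9 genes at that dose.

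Phosphoglycerate kinase 1, encoded by Pgk1 (chromosome X, 106187100 to 106203699), carries out the first ATP-yielding step of the pathway. Its control signals had a lowest, median and highest value of 7410.5, 8553 and 9639. The treated arrays read 8169, 8114, 7203 and 7572 in the 1.5 µg/kg group, 7939, 7432, 6777 and 7432 in the 3 µg/kg group and 9045, 8302, 9619 and 8944 in the 6 µg/kg group. At 3 µg/kg 1 array was below all controls and a pair lay just above the lowest control, while at 6 µg/kg all 4 were inside the control range. Pgk1 had log2 changes of -0.14 ± 0.08, -0.21 ± 0.08 and 0.07 ± 0.08 (SE). At 3 µg/kg the 95% interval was -0.37 to -0.05 and the unadjusted p was 0.0105, with a limma adjusted p of 0.707.

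Pgam1 (chromosome 19, 41911871 to 41918665) encodes the widely expressed phosphoglycerate mutase, which moves the phosphate group ahead of the enolase step. Its control signals had a lowest, median and highest value of 4090.2, 4908 and 5378. Treated arrays read 4073, 3996, 5003 and 3819 in the 1.5 µg/kg group, 4151, 4332, 5203 and 3955 in the 3 µg/kg group and 4999, 4869.9, 4309 and 4743 in the 6 µg/kg group. Below the lowest control were 3 of 4 arrays at 1.5 µg/kg and 1 of 4 at 3 µg/kg, and none at 6 µg/kg. Pgam1 had log2 changes of -0.17 ± 0.09, -0.11 ± 0.09 and -0.0035 (SE 0.09 at each dose), with limma adjusted p-values of 0.460, 0.939 and 0.993.

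Eno3 (chromosome 11, 70653125 to 70662513) encodes the muscle enolase, which replaces the ubiquitous Eno1 isoform as striated muscle matures. Control signals were 6916, 8015 and 9716 as the lowest, median and highest. Treated arrays read 7222, 7133, 7053 and 8068 in the 1.5 µg/kg group, 7358, 6785, 7526 and 8562 in the 3 µg/kg group and 7673, 6871, 9003 and 8112 in the 6 µg/kg group. Apart from 1 array at 3 µg/kg and 1 at 6 µg/kg, which lay just below the controls, the treated arrays were within the control range. Eno3 had log2 changes of -0.13 ± 0.09, -0.09 ± 0.09 and -0.03 ± 0.09 (SE), with limma adjusted p-values of 0.580, 0.949 and 0.935.

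The lactate dehydrogenase subunits close the anaerobic route. Ldha (chromosome 7, 46842274 to 46855627) encodes the subunit of glycolytic tissue, and Ldhb (chromosome 6, 142490249 to 142507957) the subunit of lactate-using tissue such as adult heart. Ldha control signals had a lowest, median and highest value of 11627, 14994 and 16333, and all 12 treated arrays lay inside that range. They read 14181, 15098, 12297 and 12716 in the 1.5 µg/kg group, 13577, 11710.1, 14625 and 15550.4 in the 3 µg/kg group and 12995, 12306, 14675 and 15369 in the 6 µg/kg group. The log2 changes were small at each dose, -0.09 ± 0.09, -0.07 ± 0.09 and -0.07 ± 0.09 (SE). Their 95% intervals were -0.29 to 0.10, -0.26 to 0.13 and -0.26 to 0.13.

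Ldhb had a wider spread than any other of the 9 genes, with an SE of 0.17. Controls read 3429, 5167 and 6753 as the lowest, median and highest. Treated arrays read 3098, 3681, 4903 and 5439.6 in the 1.5 µg/kg group, 5608, 5240.3, 4955 and 3802 in the 3 µg/kg group and 4919, 4264, 5262 and 6506 in the 6 µg/kg group. A single array, replicate 1 at 1.5 µg/kg, lay below the controls. The log2 changes were -0.24, -0.03 and 0.06, and at 1.5 µg/kg the 95% interval ran from -0.59 to 0.10. That value was -0.10 without replicate 1 and -0.37 without replicate 4 at 1.5 µg/kg. The limma adjusted p-values of Ldhb were 0.575, 0.996 and 0.927, and those of Ldha 0.725, 0.975 and 0.837.

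**Figure D3:**
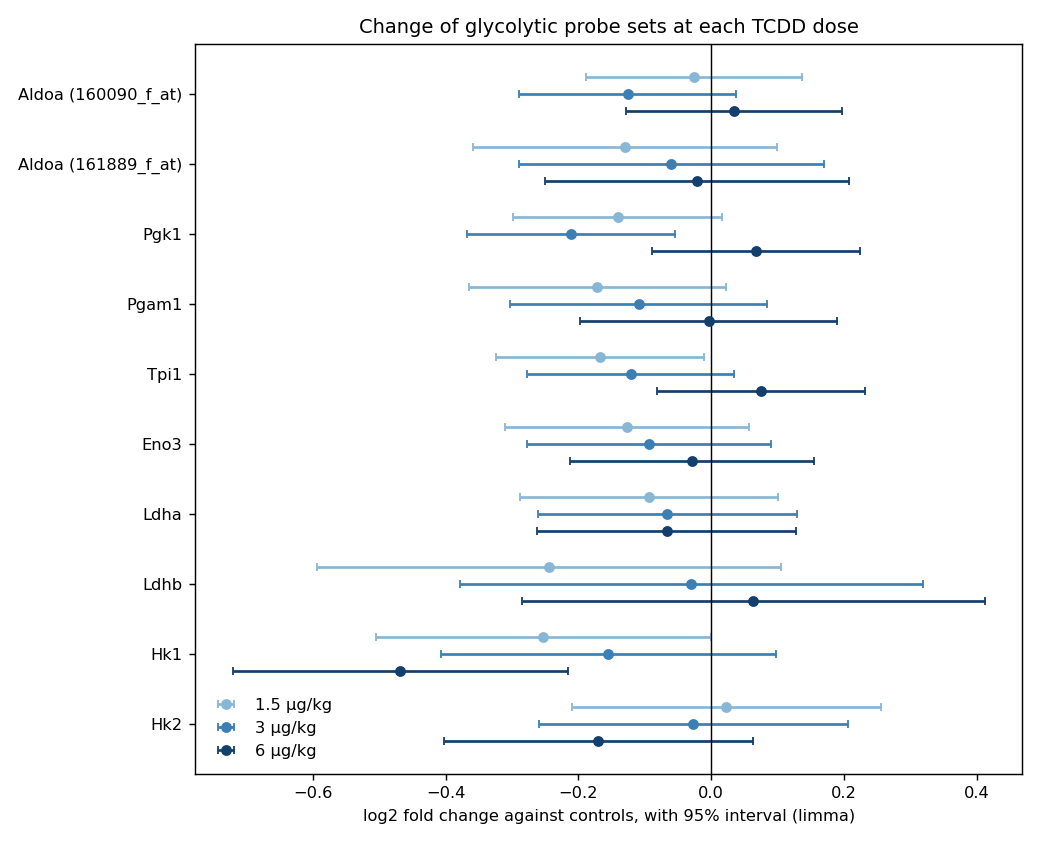
Log2 fold change of the 10 probe sets against controls at 1.5, 3 and 6 µg/kg TCDD, with 95% intervals from limma; the vertical line is no change. The points at 1.5 and 3 µg/kg lie mostly left of the line, and the interval of Hk1 at 6 µg/kg, -0.72 to -0.22, lies farthest from it; no adjusted p passed 0.05.

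Isoform balance was compared within arrays, as the difference of log2 signals of a pair of genes. The size of that difference depends on the probes, so only its shift between groups carries information. The Ldha minus Ldhb difference was 1.54 ± 0.34 in controls (SD, n = 8). It read 2.18, 2.03, 1.32 and 1.22 in the 1.5 µg/kg group, 1.27, 1.16, 1.56 and 2.02 in the 3 µg/kg group and 1.40, 1.52, 1.47 and 1.24 in the 6 µg/kg group, and the groups overlapped. The shifts were 0.15 ± 0.27, -0.04 ± 0.23 and -0.13 ± 0.14 (SE), with two-sided exact permutation p-values of 0.541, 0.877 and 0.521.

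The Hk1 minus Hk2 difference was 2.26 ± 0.28 in controls (SD, n = 8), with single arrays between 1.82 and 2.56. The arrays read 2.17, 1.79, 1.85 and 2.11 in the 1.5 µg/kg group, 2.42, 2.11, 2.34 and 1.65 in the 3 µg/kg group and 2.04, 1.98, 1.74 and 2.08 in the 6 µg/kg group. At both 1.5 and 6 µg/kg all 4 arrays lay below the control mean, but 3 of the 4 remained within the control range. The shifts were -0.28 ± 0.14, -0.13 ± 0.20 and -0.30 ± 0.13 (SE), with exact permutation p-values of 0.129, 0.501 and 0.0768. Adjusted over the 6 isoform tests, the smallest p was 0.388. The smallest exact p that 4 against 8 arrays can give is 0.00202 for a single tail, and the floor of these two-sided tests is higher. The Eno1 and Eno3 pair could not be formed.

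**Figure D4:**
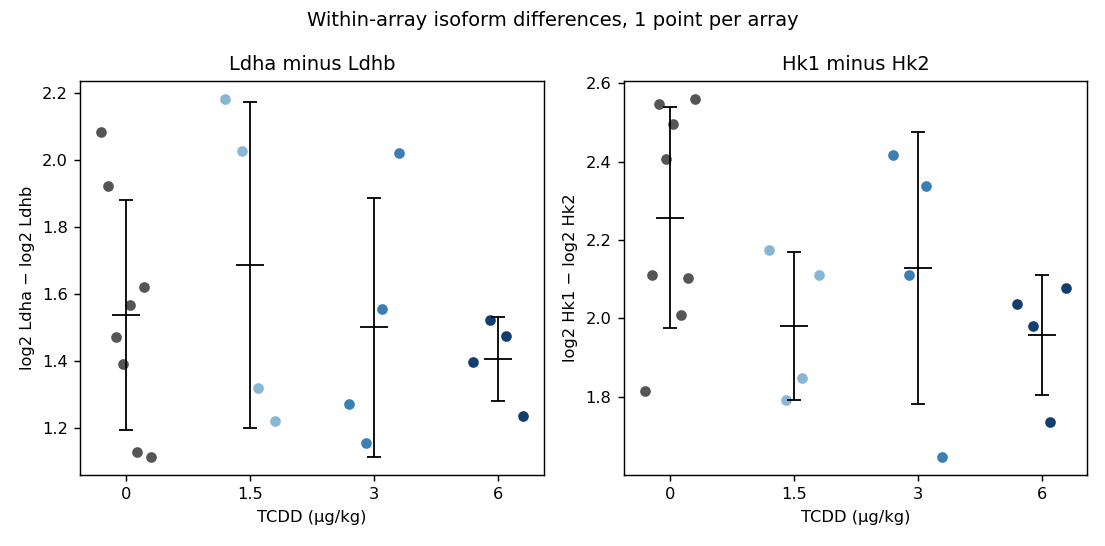
Within-array log2 difference of Ldha and Ldhb (left) and of Hk1 and Hk2 (right) by TCDD dose, 1 point per array with the group mean and SD; the axes do not start at 0. The 6 µg/kg arrays lie between 1.24 and 1.52 on the left and between 1.74 and 2.08 on the right, all below the control means of 1.54 and 2.26, and they overlap the control arrays in both panels.

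Dose dependence was examined in further contrasts. In the joint F test of the 3 doses 0 of 10 member probe sets were called, against 0.185% of all probe sets. The smallest F test p-values belonged to Hk1 (unadjusted p = 0.00721, limma adjusted p = 0.225), Pgk1 (0.0117 and 0.257) and Tpi1 (0.0345 and 0.355). Hk1 passed the F test with array weights (adjusted p = 0.0414) and without the 4 arrays of high actin ratio (adjusted p = 0.0481). In those fits 136 of 8097 and 99 of 7965 probe sets were called. The arrays dropped include controls 1 and 6, the lowest Hk1 controls, and the highest Hk1 array at 6 µg/kg. In the linear trend over dose 0 of 10 were called, against 0.0618% overall. The slope of Hk1 was -0.07 log2 units per µg/kg, with an unadjusted p of 0.00146 and a limma adjusted p of 0.358.

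Between 6 and 1.5 µg/kg 0 of 10 were called, against 0.346% overall. Tpi1 and Pgk1 were the members with the smallest p here, and for both the 6 µg/kg mean was the higher. The log2 difference was 0.24 ± 0.09 (SE) for Tpi1, with an unadjusted p of 0.0110 and a limma adjusted p of 0.177. For Pgk1 it was 0.21 ± 0.09 (SE), with an unadjusted p of 0.0260 and an adjusted p of 0.252. For Hk1 the difference was -0.22 ± 0.14 (SE), in the other direction, with an adjusted p of 0.480.

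The members were also compared for how they varied together. After removing group means, Tpi1 and Ldha had a Pearson r of 0.85 over the 20 arrays, Tpi1 and Eno3 0.72, Eno3 and Ldha 0.56, and Pgk1 and Ldha 0.55. Over the 36 pairs of the 9 genes the median r was 0.18, with a range of -0.37 to 0.85, beside a median of 0.0038 over all pairs of the 8097 probe sets. Pgam1 ran against most of the others, with a median r of -0.22 over its 8 pairs, and Hk1 had a median of -0.0022. These are descriptions over arrays that share a scaling and RNA quality, with no test.

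Among all probe sets with 1 symbol, Ldha's closest was Tpi1, and Tpi1's second closest was Ldha, behind Pxmp2 (r = 0.86). The closest to Eno3 were Pkig, Coq9 and Fdps, with r of 0.90, 0.89 and 0.88. Those closest to Hk1 were Hdgfl2, Rabggta and Ercc2, with r of 0.73, 0.73 and 0.72. Each value is over the same 20 arrays.

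**Figure D5:**
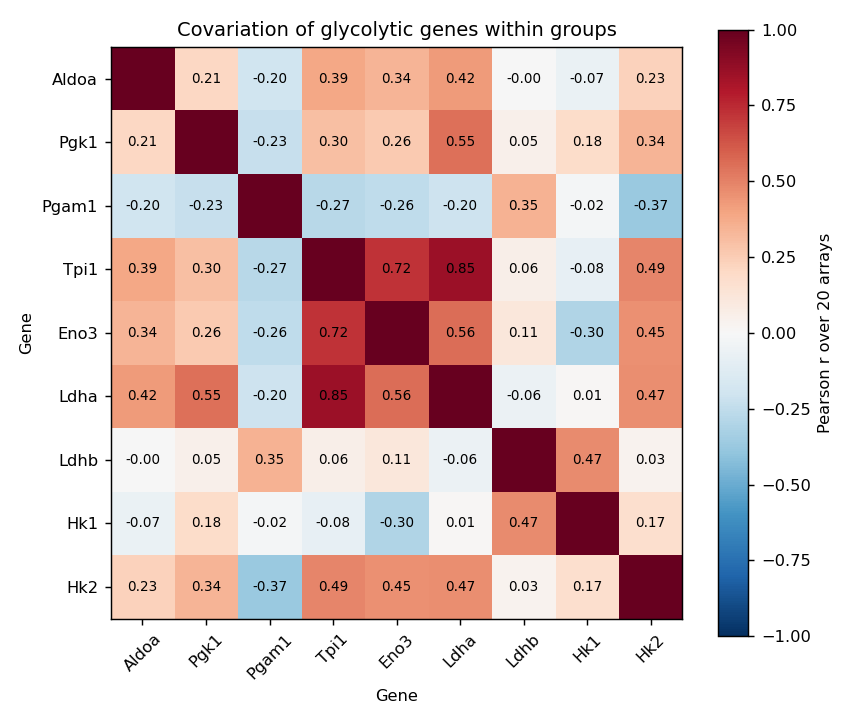
Pearson r between the 9 genes (brightest probe set of each) over 20 arrays after subtracting group means; the colour scale runs from -1 to 1 and each cell prints its r. Tpi1, Eno3 and Ldha form the reddest block, with r from 0.56 to 0.85, and Pgam1 has mostly negative values.

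In whole-heart RNA, fewer cells of a type and less RNA per cell cannot be told apart, so marker genes were read beside the pathway. Of 19 cardiomyocyte markers 17 were measured, and their means were below controls for 11, 16 and 5 of the 17 at 1.5, 3 and 6 µg/kg, with median log2 changes of -0.04, -0.09 and 0.08. None was called. At an unadjusted limma p under 0.05 were 5, 1 and 0 of the 17, against 12.6%, 5.72% and 9.15% of all probe sets. Ckm had log2 changes of -0.30, -0.16 and 0.01 (SE 0.08) at its brighter probe set and -0.57, 0.51 and -0.49 (SE 0.36) at its other. Myh6 had changes of -0.23, -0.22 and -0.07 (SE 0.08), and Mb -0.44, -0.19 and -0.15 (SE 0.15). The summed signal of the 17 ran from 245952 to 276010 in controls and from 205038 to 273175, 222422 to 251355 and 247448 to 305817 in the dose groups in rising order. The cardiomyocyte score, the mean centred log2 signal, correlated over 20 arrays within groups with Eno3 (r = 0.71), Tpi1 (0.64), Aldoa (0.61) and Ldha (0.58), and at -0.14 with Hk1. The ratio of 3′ to 5′ control signals correlated at -0.59 with both Tpi1 and Eno3, at -0.52 with Ldha and Hk2 and at 0.10 with Hk1. The β-actin 3′ to middle ratio correlated at 0.61 with Hk2, the highest of the 9 genes, and at 0.08 with Hk1. The part of these in the members' values was not tested.

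Skeletal muscle, which is also rich in Eno3 and Aldoa, was represented by 20 genes with a probe set, of which 10 passed the filter. Below the filter were Myh1, Myh2, Myh3, Myh8, Tnnt3, Tnni2, Myf5, Myf6, Chrna1 and Ryr1. Of the 10 kept, 4, 7 and 4 were below controls at 1.5, 3 and 6 µg/kg, with median log2 changes of 0.04, -0.08 and 0.05 and 0 called. The fast myosin Myh4 had a control mean of 143 and log2 changes of 0.49, 0.52 and 0.71 (SE 0.28), with a limma adjusted p of 0.473 at 6 µg/kg. Its other probe set was below the filter, with a mean of 8.6 in controls and 16.6, 2.3 and 7.4 in the dose groups. Actn3, an actinin of fast fibres, had changes of -0.47, -0.05 and 0.28 (SE 0.21), and the fast troponin Tnnc2 -0.33, -0.45 and 0.23 (SE 0.24). Actn3 and Tnnc2 each also have another probe set, below the filter. The summed signal of the 10 ran from 3928 to 5269.5 in controls, and from 4227 to 5317, 3943 to 4329 and 3287 to 4733 in the dose groups in rising order. Casq1 and Pvalb, with control means of 2315 and 999, make up most of that sum. The control means of the others ran from 103 to 198.

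Leukocyte markers lay above controls for 14 of 14 measured genes at 1.5 µg/kg, 13 of 14 at 3 µg/kg and 14 of 14 at 6 µg/kg, with median log2 changes of 0.24, 0.26 and 0.29. No leukocyte marker was called by limma, but 3, 7 and 10 of the 14 had an unadjusted p under 0.05, against 12.6%, 5.72% and 9.15% of all probe sets. S100a8, a neutrophil protein, had changes of 0.50, 0.44 and 0.79 (SE 0.17), the complement gene C1qa 0.31, 0.39 and 0.44 (SE 0.11), and the protease Ctss 0.16, 0.24 and 0.47 (SE 0.10). Their limma adjusted p-values at 6 µg/kg were 0.0855, 0.183 and 0.0877. Ptprc, Adgre1, Fcer1g, Itgam and Mpo were below the filter. The summed leukocyte signal did not overlap with controls (4358 to 4960), at 5244 to 5956, 5484 to 6046 and 5633 to 6299. How many probe sets or other gene sets separate in this way was not counted. The list was also chosen with earlier results of these data known. The leukocyte score correlated within groups at -0.62 with Ldhb, -0.57 with Eno3 and -0.15 with Hk1, and its part in the members' values was not tested.

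Markers of other cells a dissected heart can carry also gave 0 calls. Above controls at 1.5, 3 and 6 µg/kg were 9, 9 and 7 of 11 measured erythroid markers, 4, 4 and 2 of 4 lung epithelial markers and 7, 6 and 6 of 7 liver markers. For brown fat the counts were 2, 4 and 4 of 6, with Ucp1 below the filter, and for smooth muscle and fibroblasts 13, 11 and 8 of 15. Median log2 changes were 0.25, 0.12 and 0.12 for erythroid, 0.54, 1.20 and 0.07 for lung and 0.26, 0.21 and 0.23 for liver markers. For brown fat the medians were -0.17, 0.03 and 0.08, and for smooth muscle and fibroblasts 0.14, 0.08 and 0.04. The summed lung marker signal ran from 243 to 2889 in controls and from 426 to 4790 at 3 µg/kg. Unadjusted limma p-values under 0.05 numbered 1, 0 and 0 for erythroid, 0, 2 and 0 for lung and 1, 0 and 1 for liver markers. They numbered 2, 0 and 2 for brown fat and 4, 2 and 5 for smooth muscle and fibroblasts. In the last list Smtn had log2 changes of 0.25, -0.24 and -0.66 (SE 0.22). Cnn1 had 0.15, 0.15 and -0.40 (SE 0.15), and Tcf21 0.21, 0.20 and 0.08 (SE 0.08). The summed liver marker signal ran from 595 to 2024 in controls and from 910 to 3803 over the treated arrays, and its score correlated within groups at -0.68 with Ldha, -0.58 with Tpi1 and -0.48 with Hk1. The part of these lists in the members' values was not tested.

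The remaining glycolytic enzymes gave no call either. Of 17 listed, 9 were measured, and 4, 3 and 5 of them were below controls at 1.5, 3 and 6 µg/kg, with median log2 changes of 0.0036, 0.06 and -0.04. Bpgm, the red-cell enzyme that makes bisphosphoglycerate and also an erythroid marker, had log2 changes of 0.25, 0.38 and -0.12 (SE 0.19). Pfkp, the platelet-type phosphofructokinase, had changes of -0.31, -0.30 and -0.04 (SE 0.16) at its brighter probe set and -0.0043, -0.16 and -0.08 at its other. Pgam2, the muscle phosphoglycerate mutase, had changes of -0.22, -0.09 and -0.04 (SE 0.10), and at 1.5 µg/kg its limma adjusted p was 0.366.

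Glucose and lactate transport and its regulators had 14 measured genes, of which 9, 10 and 9 were below controls, with median log2 changes of -0.04 at each dose and 0 called. Slc2a1, the basal glucose transporter, had signals of 1002 ± 174 in controls (SD, n = 8) and 768 ± 107 at 6 µg/kg (SD, n = 4), a log2 change of -0.36 ± 0.14 (SE) with a limma adjusted p of 0.46, beside -0.02 and -0.03 at 1.5 and 3 µg/kg. Slc2a3, another glucose transporter, read 107.1 ± 26.0 in controls (SD, n = 8) and 159 ± 18.2 at 1.5 µg/kg (SD, n = 4), a change of 0.48 ± 0.16 (SE) with an adjusted p of 0.215, beside 0.09 and 0.01 at 3 and 6 µg/kg. Pfkfb3, the enzyme that makes the phosphofructokinase activator, had dim signals, 83.2 ± 38.4 in controls (SD, n = 8), and changes of 0.12, 0.63 and 0.61 (SE 0.29).

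Glycogen, gluconeogenesis and pentose phosphate genes were evenly divided: 12, 12 and 11 of 24 measured were below controls, with 0 called. Mdh2, the mitochondrial malate dehydrogenase, had log2 changes of -0.18, -0.15 and 0.05 (SE 0.07). The glycogen primer Gyg had changes of -0.23, -0.12 and -0.11 (SE 0.07) at its brighter probe set and -0.17, -0.10 and 0.07 (SE 0.12) at its other, which differ in sign at 6 µg/kg. Values for muscle glycogen phosphorylase Pygm were 0.20, 0.09 and -0.27 (SE 0.15). The lowest limma adjusted p of these 3 genes was 0.182, that of Gyg at 1.5 µg/kg.

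Hypoxia-inducible factor subunits and hypoxia genes outside glycolysis had 21 measured members, of which 11, 13 and 11 were below controls, with median log2 changes of -0.03, -0.06 and -0.02 and 0 called. Higd1a, a mitochondrial hypoxia gene, had changes of -0.38, -0.07 and 0.16 (SE 0.13). Hmox1, heme oxygenase, had changes of 0.36, 0.35 and 0.12 (SE 0.13), and Epas1, which encodes HIF-2α, 0.42, 0.20 and -0.15 (SE 0.16). The limma adjusted p of each at 1.5 µg/kg was 0.232, 0.232 and 0.267.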

How the data were processed

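The authors deposited 1 table of MAS5 signals (linear intensity values, 1 per probe set) for 20 arrays; MAS5 is named in the submitters' processing notes, with its version not given in the sources used here. A trimmed mean (2% off each end) of 500.28 to 500.341 on every array showed a common scaling. Arrays were scaled to a trimmed mean of 500 and taken as log2(signal + 32). The 66 AFFX features were left out, and probe sets at or above an array's 40th percentile in at least 4 arrays were kept. Symbols came from the platform annotation (10833 probe sets with 1, 396 with several, 1193 with none) and locations from RefSeq GRCm38.p6; probe positions were not used.

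Groups followed the labels. 1 fit over all 20 arrays in R 4.3.3 with limma 3.58.1 (lmFit, eBayes with trend) gave two-sided p-values, adjusted by Benjamini-Hochberg within each comparison at 0.05, after a test on simulated data. Isoform differences had exact permutation tests (scipy 1.17.1). Genes chosen for naming beyond the members were, per list, those called and the 3 with the smallest joint F test p. The 3 probe sets most correlated with a member were added, of which examples are printed. For the erythroid, lung, liver and brown fat lists counts are given in place of these genes, apart from Bpgm. Marker genes below the filter, outside that rule, were named to show what the lists lack. Members and lists were chosen with earlier results of these data known. An array gives 1 value per gene, so the number of arrays limits the precision. Alternatives covered scaling, pseudocount, filter, variance trend, weights, controls, blocks and single arrays.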

Additional observations from a re-analysis of the deposited data

Results flagged for a closer look

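In 56 groups of 4 or 8 arrays (each member probe set in each group, and the isoform differences), the highest or lowest array was compared with its nearest neighbour. In 3 of them its gap exceeded Dixon's 95% limit, and chance alone flags about 1 in 20 groups. Aldoa 160090_f_at read 19811.8 in replicate 3 at 6 µg/kg, above the other 3 arrays of the group at 15661 to 16149.7, a gap of 0.882 of the range. Eno3 read 8068.5 in replicate 4 at 1.5 µg/kg, above 7053 to 7222, a gap of 0.834 of the range. Hk1 read 8887.6 in that same array, above 6755 to 7101, a gap of 0.838 of the range. Without that array the Hk1 log2 change at 1.5 µg/kg was -0.34, against -0.25 with it.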

How the results depend on the processing

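No member was called at 1.5 or 3 µg/kg, in the trend or between 6 and 1.5 µg/kg under any of the alternatives run. Hk1 was the 1 member that passed elsewhere: at 6 µg/kg with array weights or with controls 1 to 4 only, and in the joint F test with array weights or in the fit that dropped the 4 arrays of high actin ratio. Among those dropped arrays were controls 1 and 6, the lowest for Hk1 at 7622 and 7355, and control 2 at 9927. The other was replicate 4 at 6 µg/kg, at 8175 the highest Hk1 signal of its group. Over the 34 alternatives, 7 to 9 of the 9 genes were below controls at 1.5 µg/kg, 7 to 9 at 3 µg/kg and 3 to 6 at 6 µg/kg.

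Counts of called probe sets over the whole array moved more. Against 17, 2, 6, 5, 15 and 28 (1.5, 3 and 6 µg/kg, trend, F test, 6 against 1.5), array weights gave 26, 4 and 10 at the doses, 136 in the F test and 181 for 6 against 1.5. Controls 1 to 4 alone gave 3, 4, 187, 166, 87 and 129, and controls 5 to 8 alone 156, 30, 3, 2, 170 and 175. Dropping the arrays of high actin ratio gave 30, 6, 3, 2, 99 and 137. With the 3′ to 5′ ratio as a covariate 42 were called at 1.5 µg/kg and 0 for 6 against 1.5. Without the filter there were 8 at 1.5 µg/kg, 2 in the trend and 9 for 6 against 1.5. A fit of only the groups compared gave 7 at 1.5 µg/kg and 57 for 6 against 1.5, and quantile normalisation 44 for the last. Leaving out single arrays gave 4 (without 1.5 µg/kg replicate 1 or 2) to 52 (without 1.5 µg/kg replicate 3) at 1.5 µg/kg. At 6 µg/kg it gave 4 to 12 (without replicate 4 of that group). The trend then had 2 to 6, and the F test 8 to 36. For 6 against 1.5 µg/kg the counts were 2 (without replicate 2 at 1.5 or at 6 µg/kg) to 71 (without control 6).

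Sign changes concerned small differences, none past the threshold, and all values are log2 changes. The members' median at 3 µg/kg, -0.11 in the main fit, is also listed, though it moved without turning sign. With controls 1 to 4 alone, and equally with the replicate block on those controls, Aldoa 160090_f_at was -0.0024, Aldoa 161889_f_at 0.055 and Pgam1 0.083 at 6 µg/kg. There Aldoa 161889_f_at was 0.017 and Ldhb 0.059 at 3 µg/kg, Hk2 -0.10 and Ldha minus Ldhb -0.029 at 1.5 µg/kg, and the members' median -0.16 at 3 µg/kg. With controls 5 to 8 alone, Aldoa 160090_f_at was 0.011 at 1.5 µg/kg, Ldha 0.025 and 0.024 at 3 and 6 µg/kg, Ldhb -0.026 at 6 µg/kg and Hk2 0.099 at 3 µg/kg. Ldha minus Ldhb was then 0.14 and 0.050 at 3 and 6 µg/kg. With quantile normalisation Aldoa 160090_f_at was -0.067 and Pgam1 0.0037 at 6 µg/kg. Ldha was 0.0091, Ldhb 0.00282, Ldha minus Ldhb 0.0063 and the members' median -0.056 at 3 µg/kg. With array weights Ldhb was 0.0045 and -0.0020 at 3 and 6 µg/kg. With the 3′ to 5′ covariate Aldoa 161889_f_at was 0.0027 and Hk2 -0.14 at 1.5 µg/kg. In the fit that dropped the arrays of high actin ratio, Eno3 was 0.042 and Ldhb -0.13 at 6 µg/kg, Hk2 0.079 at 3 µg/kg, and Ldha minus Ldhb 0.069 and 0.032 at 3 and 6 µg/kg. The causes were not tested.

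Leaving out single arrays gave these ranges where the sign turned. At 1.5 µg/kg they were -0.10 to 0.033 for Aldoa 160090_f_at, -0.022 to 0.11 for Hk2 and -0.015 to 0.31 for Ldha minus Ldhb. At 3 µg/kg they were -0.11 to 0.011 for Aldoa 161889_f_at, -0.12 to 0.012 for Ldha, -0.11 to 0.086 for Ldhb, -0.070 to 0.018 for Hk2, -0.21 to 0.079 for Ldha minus Ldhb and -0.22 to 0.033 for Hk1 minus Hk2. At 6 µg/kg they were -0.045 to 0.068 for Aldoa 160090_f_at, -0.073 to 0.064 for Aldoa 161889_f_at, -0.033 to 0.040 for Pgam1, -0.093 to 0.036 for Eno3, -0.046 to 0.16 for Ldhb and -0.045 to 0.036 for the members' median. Other values kept their sign and moved by over 1.5 times. At 1.5 µg/kg they ran from -0.37 to -0.10 for Ldhb, -0.15 to -0.048 for Ldha and -0.18 to -0.076 for Aldoa 161889_f_at. At 3 µg/kg they ran from -0.23 to -0.024 for Hk1, -0.15 to -0.056 for Tpi1, -0.16 to -0.044 for Eno3, -0.19 to -0.060 for Pgam1 and -0.14 to -0.067 for the members' median. At 6 µg/kg they ran from -0.12 to -0.013 for Ldha, -0.25 to -0.11 for Hk2, 0.034 to 0.10 for Pgk1, 0.023 to 0.12 for Tpi1 and -0.19 to -0.052 for Ldha minus Ldhb.

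The replicate numbers share only a number: 4 of 24 same-number correlations exceeded 0.1, beside 10 of 72 of different numbers. With the replicate block, 2 probe sets were called at 1.5 µg/kg, 133 at 6 µg/kg, 126 in the trend, 66 in the F test and 100 for 6 against 1.5 µg/kg, and 0 members in each. Isoform tests were not rerun where a setting concerns only the fit (filter, trend, weights, covariate, groups), and Eno1 minus Eno3 was not run.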

Other observations

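A pair of member probe sets stayed below the filter. Ldhb 161945_at had a control mean of 12.7 and dose means of 10.6, 7.85 and 9.92, and Hk2 161313_at read between 2.5 and 34.0 on all arrays. Gapdh, the glycolytic enzyme between triose phosphate isomerase and phosphoglycerate kinase, was read through the array's 3′, middle and 5′ control features, which were not tested. Its 3′ feature averaged 22163 ± 1403 in controls (SD, n = 8) and 22584 ± 3888, 20527 ± 1115 and 23926 ± 2240.2 in the dose groups in rising order (SD, n = 4 each). The middle feature averaged 25794 ± 1675 in controls and 26960 ± 4293, 25631 ± 4633 and 27303 ± 3371 in the dose groups. For the 5′ feature the values were 25044 ± 1538 in controls and 26764 ± 3627, 24042 ± 2793 and 26676 ± 2669.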
